A study of Mus musculus with 7 samples.

Results

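The 36 genes described here make, sense or export cholesterol, or make fatty acids. They are taken by pathway, with no measured value in the rule. They fall into 18 genes of sterol synthesis, 5 of sterol sensing, 4 of sterol transport and 9 of fatty acid synthesis. Of the 36, 34 had a probe set (a group of array probes for 1 transcript) that names them alone, among 18193 such genes on the array. Acat2 and Nr1h2 had none and are not analysed here. A level is log2(intensity + 1), and testing required a highest group mean of at least 5, which 33 members and 11460 genes in all reached. Scd1, with levels between 3.49 and 4.60, was the measured member that was not tested.

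The arrays measured RNA of CD4+ T cells of male mice, 3 weeks old. Peripheral lymph node cells were depleted of those with CD11b, CD11c, NK1.1, CD8 or B220 and the rest sorted by CD3 and CD4. C57BL/6 mice (B6), the wild type, gave 1 array, from lymph nodes pooled from a pair of mice. Scurfy mice (Sf, B6.Cg-Foxp3sf/J) gave 3 arrays. Their Foxp3 gene, which regulatory T cells depend on, is mutated in the germline. A further 3 arrays, called Sf.Il2-/- as in the labels, came from scurfy mice in which Il2 is null as well (B6.129P2-Il2tm1Hor/J). Its product, interleukin-2, is a growth factor of T cells. Both mutant groups thus share the Foxp3 mutation. Mutant replicates are called biological in the labels, which do not say how many mice each holds. With B6 as 1 array, its spread is taken to be that of the mutants.

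Cholesterol is built from acetyl-CoA through mevalonate, farnesyl pyrophosphate, squalene and lanosterol, and fatty acids are built from the same acetyl-CoA. Both routes are switched on by the SREBP transcription factors, which the escort protein SCAP carries out of the endoplasmic reticulum when sterol is low and which the INSIG proteins hold back when sterol is high. SREBP2, made from Srebf2, is best known for the sterol genes, and SREBP1c, made from Srebf1, for the fatty acid genes. Oxysterols activate LXR, which drives the export pumps ABCA1 and ABCG1. Activated T cells are known to raise both syntheses to build membranes.

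SREBP binds sterol regulatory elements next to sites of NF-Y and Sp1, so the promoters of 6 members were read from RefSeq (GRCm38.p6), to show these letters in the genes whose values the comparisons turn on. They are those with the lowest p in any comparison among members that hold a motif. Each run below lies in the 250 bases before an annotated start and is trimmed to 10 bases on either side of its motifs, where the window allowed it. Capitals mark the SRE core TCACNCCAC, the NF-Y motif CCAAT, the Sp1 motif GGGCGG and the E-box CACGTG, on either strand, where N is any base and ATTGG and CCGCCC are the other strands of CCAAT and GGGCGG. Hmgcs1 lies at chr13:119690104-119690342 on the plus strand, Srebf2 at chr15:82147048-82147250 (plus), Idi1 at chr13:8885527-8885605 (plus), Cyp51 at chr5:4104712-4104842 (minus), Fasn at chr11:120824592-120824647 (minus) and Abca1 at chr4:53159977-53160068 (minus). The runs of Fasn and of Abca1 lie in whole or in part inside the gene as RefSeq spans it, since another transcript starts farther upstream. All read 5′ to 3′ on the gene's strand.
Hmgcs1: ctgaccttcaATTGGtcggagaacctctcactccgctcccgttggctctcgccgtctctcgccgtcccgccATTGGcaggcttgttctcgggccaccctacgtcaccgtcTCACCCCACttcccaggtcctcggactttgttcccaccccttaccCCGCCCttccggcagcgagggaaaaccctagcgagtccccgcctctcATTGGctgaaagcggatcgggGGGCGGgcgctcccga
Srebf2: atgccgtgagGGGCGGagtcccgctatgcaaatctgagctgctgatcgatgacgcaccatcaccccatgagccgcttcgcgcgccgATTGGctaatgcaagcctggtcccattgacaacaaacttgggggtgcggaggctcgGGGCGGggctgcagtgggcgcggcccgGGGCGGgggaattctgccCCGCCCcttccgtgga
Idi1: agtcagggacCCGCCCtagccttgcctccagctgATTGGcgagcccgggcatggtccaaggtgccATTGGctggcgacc
Cyp51: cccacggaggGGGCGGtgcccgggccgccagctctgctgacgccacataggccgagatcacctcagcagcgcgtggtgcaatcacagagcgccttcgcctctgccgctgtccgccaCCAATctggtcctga
Fasn: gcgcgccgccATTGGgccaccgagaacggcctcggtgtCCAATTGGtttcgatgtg
Abca1: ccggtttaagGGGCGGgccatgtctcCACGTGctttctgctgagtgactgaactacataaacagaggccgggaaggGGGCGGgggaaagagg

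Among 28 members with a promoter window, the 15 sterol synthesis genes (Acat2 among them) held more of these letters than the 6 fatty acid genes. CCAAT was found in 14 of the 15 and in 2 of the 6 (Elovl5 and Fasn), against 37.5% of 27025 genes and 40.4% of the 9311 tested genes with a window. GGGCGG was found in 14 of the 15 and in 2 of the 6 (Acly and Fads2), against 35.4% of all genes and 62.7% of tested genes. The 5 sensing genes held GGGCGG in 5 and CCAAT in 4. CACGTG was found in 7 of the 28 (Abca1, Dhcr7, Elovl5, Hsd17b7, Insig1, Sc5d and Scap), against 6.86% of all and 9.95% of tested genes. The SRE core was found in 1 of the 28, Hmgcs1, against 1.23% of all and 1.22% of tested genes. The LXR element, AGGTCA in 2 copies with 4 bases between, was found in 0 of the 28 and in 0.015% of all genes. A match is a description of letters and not a bound site, and no match concerns only this window.

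**Figure D1:**
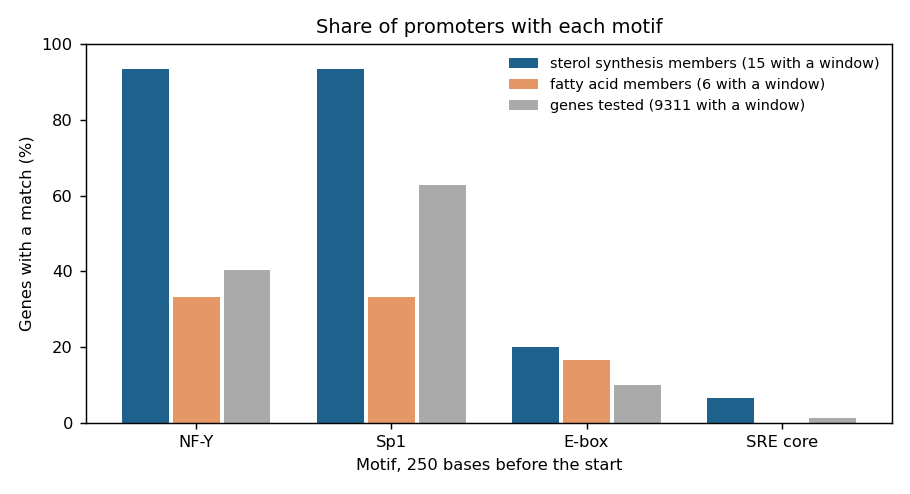
Share of genes (%, vertical axis from 0) whose 250 bases before the start hold each motif, for 15 sterol synthesis members, 6 fatty acid members and 9311 tested genes. The sterol bars stand at 93.3% for both NF-Y and Sp1, and the fatty acid bars at 33.3%.

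On the label check, Foxp3 gave 7.25 in B6, between 5.87 and 6.32 in Sf, and between 4.20 and 4.41 in Sf.Il2-/-. Il2 gave 5.22 in B6, between 5.09 and 7.35 in Sf, and between 7.17 and 8.20 in Sf.Il2-/-, so the libraries labelled Il2-null were not lower. Whether the probes lie in the deleted part is not given in the sources used here, so this checks nothing. Median intensity per array ran from 29.3 to 32.4. The upper quartile differed more. It was 140.9 in B6, 116.4, 110.2 and 144.6 on Sf 1, 2 and 3, and 115.5, 116.4 and 130.4 on Sf.Il2-/- 1, 2 and 3. Sf 3 stood apart from the other Sf arrays. Its median difference from B6 over all genes tested was -0.10, against -0.29 and -0.41 for Sf 1 and Sf 2, and without it calls over all genes rose from 32 to 872 in Sf.Il2-/- v Sf and from 283 to 3523 in Sf v B6. Of 9 CD4 T cell markers 8 were measured, all above 5 on every array, with summed intensities of 22231 (B6), 10983 to 15994 (Sf) and 17932 to 20186 (Sf.Il2-/-). S100a8, a neutrophil marker, gave 6.37 on Sf 1 and 7.63 on Sf.Il2-/- 2, against at most 4.10 elsewhere. Of 6 measured adipocyte markers 5 lay under 5 on every array, Adipoq, Lep and Cidec among them.

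Sterol synthesis genes read lower in Sf than in B6 in most steps of the pathway, with Sf.Il2-/- between them at the median. Over the 17 measured genes the median difference was -0.58 in Sf v B6, -0.28 in Sf.Il2-/- v B6 and 0.32 in Sf.Il2-/- v Sf, where the medians over all genes tested were -0.25, -0.14 and 0.08. Relative to all genes the sterol medians were thus -0.34, -0.14 and 0.25. Brighter genes at large read lower against B6. Over all genes with a highest group mean of at least 6, the medians were -0.34, -0.22 and 0.10. Quantile normalization moved the median over all genes to 0.02 in Sf v B6 and to 0.06 in Sf.Il2-/- v B6, and the sterol medians to -0.33 and 0.0047. The comparisons share the Sf arrays or the B6 array, so they are not independent of each other. In RNA of whole sorted samples, fewer cells of a type and less RNA per cell cannot be told apart.

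The CD4 T cell markers moved the same way as the sterol genes. Their median difference was -0.82 in Sf v B6, where 8 of 8 had no Sf array as high as B6, -0.31 in Sf.Il2-/- v B6 and 0.55 in Sf.Il2-/- v Sf, with 0 of 8 past the threshold in each by limma, and 7, 0 and 6 of 8 at an unadjusted p under 0.05. Of all genes, 46.9% had no Sf array as high as B6, and 16.8%, 12.5% and 5.46% reached that p in the same direction as these medians. Their part in the sterol differences was not tested.

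By array, the median of the sterol genes did not follow the position of Sf 3. Their median against B6 was -0.47 on Sf 1, -0.68 on Sf 2 and -0.60 on Sf 3, and -0.32, -0.17 and -0.39 on Sf.Il2-/- 1, 2 and 3. The fatty acid genes had -0.65, -0.95 and -0.26 on the Sf arrays and -0.71, -0.27 and -0.38 on the Sf.Il2-/- arrays. By these medians Sf 3 was the Sf array nearest to B6 for fatty acid synthesis, as for genes at large, and not for sterol synthesis. Single sterol genes were divided. Sf 3 was nearest to B6 for Hmgcs1, Sqle, Cyp51, Tm7sf2 and Dhcr7. It was also nearest for Mvk and Mvd, which lay above B6 on Sf 1 and Sf 2. Sf 1 was nearest for Pmvk, Idi1, Fdps, Fdft1, Lss, Sc5d, Msmo1 and Nsdhl, and Sf 2 for Hsd17b7 and Ebp.

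**Figure D2:**
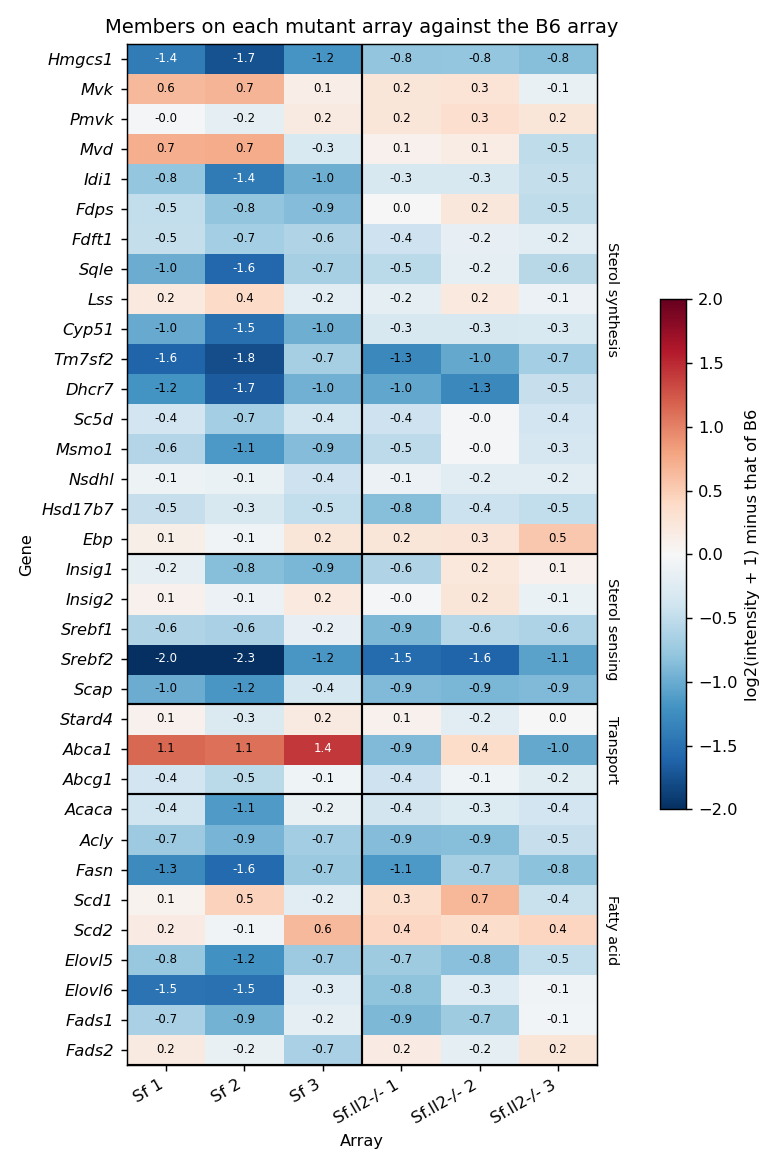
Level on each mutant array minus the level on the B6 array (log2, colour scale and numbers) for the 34 measured members, ordered by role. Hmgcs1, Srebf2 and Fasn lie below B6 on all 6 mutant arrays, and Abca1 lies above it on all 3 Sf arrays.

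At the threshold of an adjusted p of 0.05, Sf v B6 called 1 of 33 members, Hmgcs1, as lower, where 2.47% of all genes were called and 1.16% were called lower. Unadjusted p values under 0.05 on the lower side were found for 12 of 33 members, 7 of them among the 17 sterol and 3 among the 8 tested fatty acid genes, against 16.8% of all genes. No Sf array was as high as B6 for 23 of 33, among them 12 of 17 sterol and 6 of 8 fatty acid genes, against 46.9% of all genes. Without Sf 3, 12 members were called lower (Hmgcs1, Idi1, Sqle, Cyp51, Tm7sf2, Dhcr7, Srebf2, Scap, Acly, Fasn, Elovl5 and Elovl6). In that setting 30% of all genes were called in either direction, and 2811 of 11737 were called lower. Without Sf 1 and without Sf 2, 0 members were called, where 1.02% and 2.42% of all genes were. With the replicate number as a block, 7 were called lower (Hmgcs1, Cyp51, Tm7sf2, Dhcr7, Srebf2, Fasn and Elovl6). Of all genes, 16.4% were called there in either direction, and 1390 of 11460 were called lower. With the array set as a block instead, 2 members were called lower (Hmgcs1 and Srebf2). There 5.28% of all genes were called in either direction, and 211 of 11460 were called lower. The block by number placed B6, numbered 1, with Sf 1 and Sf.Il2-/- 1, although no label says that these share anything. An array set is a group of arrays told apart by their values in earlier work, and no label names it. Set 1 holds Sf 1, Sf 2, Sf.Il2-/- 1 and Sf.Il2-/- 2, and the other 3 arrays, B6 among them, form the second. Unadjusted counts for sterol genes without each Sf array ran from 6 to 8, and for fatty acid genes from 3 to 5, highest without Sf 3. The shares of all genes were 9.69%, 11.2% and 34.3% without Sf 1, 2 and 3.

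Hmgcs1, the synthase that makes HMG-CoA at the entry to the mevalonate route, read 9.72 in B6, 8.33, 7.97 and 8.55 on Sf 1, 2 and 3, and 8.93, 8.94 and 8.87 on Sf.Il2-/- 1, 2 and 3. The 3 groups did not overlap, with Sf lowest and Sf.Il2-/- between. It fell by 1.44 ± 0.30 (SE, 3 arrays against 1) in Sf v B6, 2.71-fold, with an adjusted p of 0.0407. It stayed below B6 under every alternative, by 0.99 to 1.57, but the call was lost without Sf 1 (adjusted p = 0.121) and without Sf 2 (0.0578), over a range of 0.00364 to 0.163. In Sf.Il2-/- v B6 it differed by -0.80 (adjusted p = 0.199), and in Sf.Il2-/- v Sf by 0.63 ± 0.21 (adjusted p = 0.449). Its second probe set kept this order, with 9.74 for B6, 7.82 to 8.54 for Sf and 8.81 to 8.90 for Sf.Il2-/-. The dimmest of its 5 probe sets did not: it read 5.45 in B6, 3.75 to 4.61 in Sf and 3.05 to 4.07 in Sf.Il2-/-, a difference of -0.53 in Sf.Il2-/- v Sf.

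Idi1, the isomerase of isopentenyl pyrophosphate, had levels of 7.65 in B6, then 6.88, 6.23 and 6.67 in Sf, then 7.33, 7.32 and 7.17 in Sf.Il2-/-. Its groups were likewise apart in the order B6, Sf.Il2-/-, Sf. The difference was -1.06 ± 0.31 in Sf v B6 (adjusted p = 0.0988) and 0.68 ± 0.22 in Sf.Il2-/- v Sf (adjusted p = 0.430). Fdps, which makes farnesyl pyrophosphate, stood at 8.32 for B6, 7.84, 7.53 and 7.45 for Sf and 8.34, 8.55 and 7.81 for Sf.Il2-/-. All Sf arrays lay below B6, whereas Sf.Il2-/- arrays lay on both sides of it, and Sf 1 overlapped Sf.Il2-/- 3.

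The enzymes between these steps read otherwise by their brightest probe sets. Mvk, the mevalonate kinase, read 5.38 on the B6 array, 6.02, 6.05 and 5.50 on the Sf arrays and 5.63, 5.65 and 5.23 on the Sf.Il2-/- arrays, so that every Sf array was above B6. The differences in Sf v B6 were 0.48 for Mvk, -0.02 for Pmvk (phosphomevalonate kinase) and 0.39 for Mvd (mevalonate decarboxylase), with adjusted p of 0.418, 0.969 and 0.607. For Mvk, Mvd and Lss the second probe set had the other sign, and Pmvk has 1 probe set. The second probe set of Mvd differed by -0.93 where the first differed by 0.39, and that of Lss, the lanosterol synthase, by -0.88 where the first differed by 0.12. For Mvk the second, under 5 on every array, differed by -0.95. The direction of Mvk, Mvd and Lss is therefore unsettled. Of 19 members with at least 2 probe sets at 5 or more, 7 had both signs in Sf v B6, 3 in Sf.Il2-/- v B6 and 9 in Sf.Il2-/- v Sf.

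**Figure D3:**
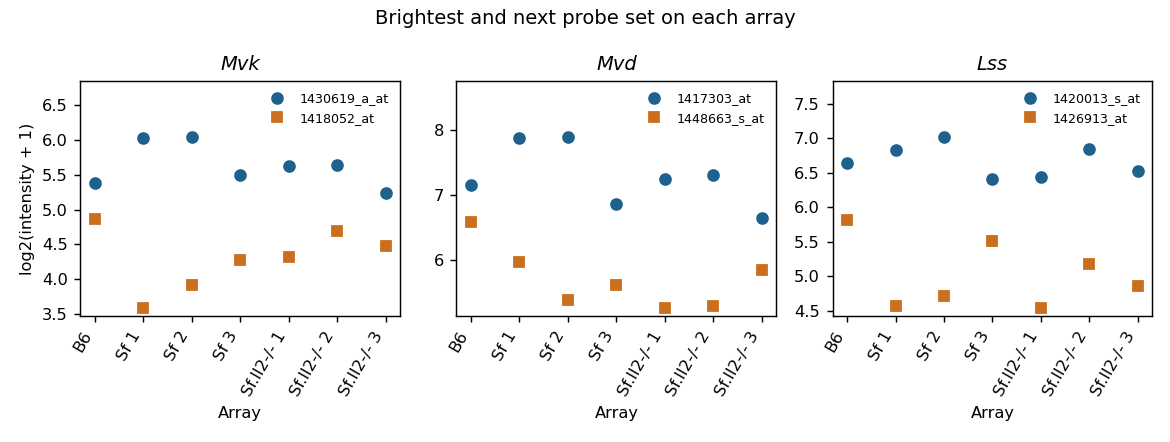
Levels (log2(intensity + 1), vertical axis not from 0) of the brightest and the next probe set of Mvk, Mvd and Lss on each of the 7 arrays. Circles (brightest) of Mvd stand at 7.89 and 7.90 on Sf 1 and Sf 2 against 7.16 in B6, while squares (next) stand at 5.97 and 5.39 against 6.60.

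In the squalene steps, Sqle, the epoxidase, had levels of 8.24 in B6, then 7.24, 6.67 and 7.57 in Sf, then 7.70, 8.05 and 7.68 in Sf.Il2-/-. Its groups did not overlap, with differences of -1.08 ± 0.37 in Sf v B6 (adjusted p = 0.137) and 0.65 ± 0.26 in Sf.Il2-/- v Sf (adjusted p = 0.571). Fdft1, the squalene synthase, differed by -0.58 and 0.32.

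After lanosterol, Cyp51, which removes the first methyl group, had the most alike Sf.Il2-/- values. It stood at 8.04 for B6, 7.03, 6.53 and 7.06 for Sf and 7.72, 7.72 and 7.73 for Sf.Il2-/-. Sf.Il2-/- arrays lay between B6 and Sf with no overlap. The difference was -1.17 ± 0.29 in Sf v B6 (adjusted p = 0.0704, 0.0346 with the replicate block and 0.0533 with the array set as a block). It was 0.85 ± 0.21 in Sf.Il2-/- v Sf, 1.81-fold, with an unadjusted p of 0.00236 and an adjusted p of 0.252. Msmo1, the next methyl oxidase, differed by -0.87 and 0.57 in these comparisons.

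Dhcr7 and Tm7sf2, both reductases of late sterols, were low in both mutants. Dhcr7 read 8.09 on the B6 array, 6.89, 6.42 and 7.13 on the Sf arrays and 7.06, 6.80 and 7.63 on the Sf.Il2-/- arrays. Tm7sf2 had levels of 6.26 in B6, then 4.67, 4.50 and 5.60 in Sf, then 4.97, 5.24 and 5.58 in Sf.Il2-/-. All 6 mutant arrays lay below B6 for each, and Sf and Sf.Il2-/- overlapped. Dhcr7 differed by -1.28 ± 0.38 in Sf v B6 (adjusted p = 0.108, 0.0181 with the replicate block, 0.0955 with the array set as a block) and by -0.93 in Sf.Il2-/- v B6 (adjusted p = 0.236, 0.0459 with the replicate block, 0.280 with the array set). Tm7sf2 differed by -1.34 (adjusted p = 0.145, 0.026 with the replicate block, 0.165 with the array set), and in Sf.Il2-/- v B6 its adjusted p was 0.295.

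Hsd17b7, the ketoreductase of the demethylation complex, stood at 6.23 for B6, 5.78, 5.91 and 5.74 for Sf and 5.39, 5.81 and 5.74 for Sf.Il2-/-. All mutant arrays were below B6, with differences of -0.42 and -0.59. Nsdhl, the partner of Hsd17b7, and the desaturase Sc5d lay below B6 on every mutant array, by -0.21 and -0.49 in Sf v B6. Ebp, the sterol isomerase, went the other way, by 0.10 and, in Sf.Il2-/- v B6, 0.34. None of these passed the test.

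Between the mutants (Sf.Il2-/- v Sf), limma called 0 of 33 members, where 0.279% of all genes were called. Unadjusted p values under 0.05 on the higher side were found for 6 of 17 sterol genes (Hmgcs1, Idi1, Fdps, Sqle, Cyp51 and Msmo1) and 0 of 8 fatty acid genes, against 5.46% of all genes. All Sf.Il2-/- arrays lay above all Sf arrays for 7 of 17 sterol genes (Hmgcs1, Pmvk, Idi1, Fdft1, Sqle, Cyp51 and Msmo1) and 0 of 8 fatty acid genes, against 8.39% of all genes. The 6 of 17 became 1 without Sf 2, 3 without Sf.Il2-/- 2 and 7 without Sf 3, against 2.47%, 3.53% and 21.4% of all genes. The 7 of 17 became 9 without Sf 3, against 37% of all genes. Without Sf 3, limma called 5 members, with Hmgcs1, Sqle, Cyp51 and Elovl6 higher and Abca1 lower, where 7.43% of all genes were called. Fdps, Pmvk and Elovl6 lie on chromosome 3 with Il2, 52.0, 52.3 and 92.4 Mb from it.

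Pairs of arrays with the same number gave a median of Sf.Il2-/- minus Sf over sterol genes of 0.11, 0.54 and 0.20 for numbers 1, 2 and 3. Over all genes tested these were 0.07, 0.18 and -0.0033, and over fatty acid genes 0.04, 0.37 and 0.13. The sterol median was above that of all genes in each pair, least in pair 1.

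For Sf.Il2-/- v B6, limma called 0 of 33 members, where 2.69% of all genes were called. Unadjusted p values under 0.05 on the lower side were found for 8 of 33, against 12.5% of all genes: 2 sterol, 3 sensing and 3 fatty acid genes. No Sf.Il2-/- array was as high as B6 for 21 of 33, against 44.5% of all genes. The 2 sterol genes, Hmgcs1 and Dhcr7, became 0 without Sf.Il2-/- 1 or without Sf.Il2-/- 2, and the 3 fatty acid genes became 0 and 1. The shares of all genes also fell there, to 7.52% and 7.9%. Without Sf.Il2-/- 3 there were 3 sterol and 2 fatty acid genes, against 14.3% of all genes. With the replicate block, 2 members were called lower, Dhcr7 and Srebf2. There 10.6% of all genes were called in either direction, and 867 of 11460 were called lower.

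**Figure D4:**
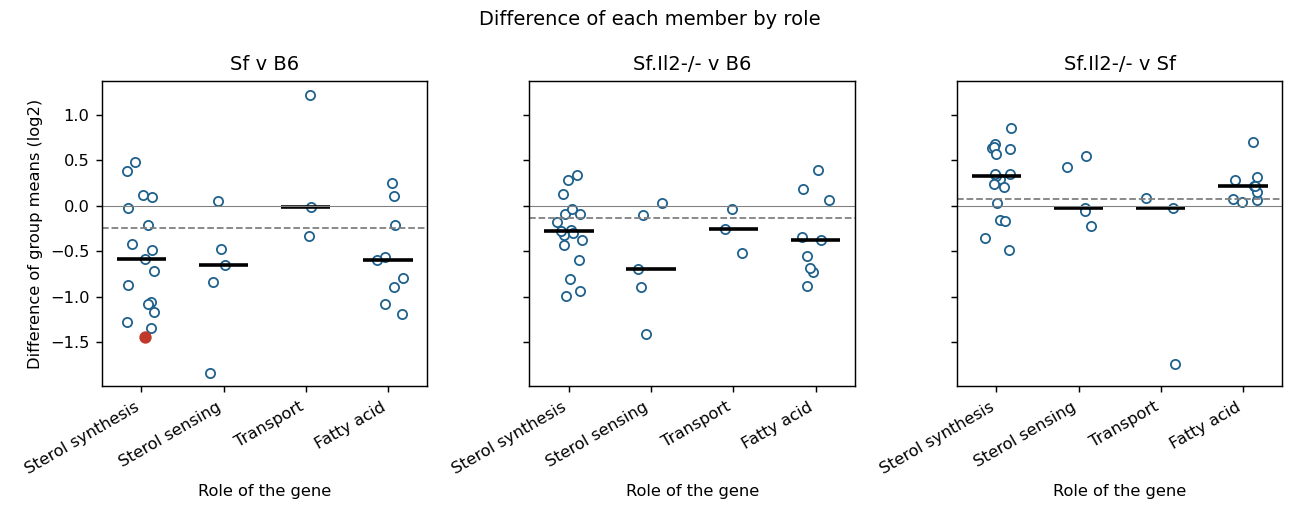
Difference of group means (log2) of each measured member in the 3 comparisons, by role, with the median of each role (black bar) and the median over all genes tested (dashed line). The filled red point is Hmgcs1, called in Sf v B6. The sterol median lies at -0.58, -0.28 and 0.32 from left to right.

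Srebf2, the gene of SREBP2, had the largest difference of all members in Sf v B6. It read 9.87 on the B6 array, 7.86, 7.54 and 8.71 on the Sf arrays and 8.33, 8.26 and 8.80 on the Sf.Il2-/- arrays. All 6 mutant arrays were below B6, and the mutant groups overlapped. The difference was -1.83 ± 0.44 in Sf v B6 (adjusted p = 0.0612, 0.0109 with the replicate block, 0.0304 with the array set as a block), -1.40 in Sf.Il2-/- v B6 (adjusted p = 0.140, 0.0212 with the replicate block, 0.0915 with the array set) and 0.43 in Sf.Il2-/- v Sf (adjusted p = 0.843). Its second probe set differed by -1.64, -0.97 and 0.67.

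Scap, the escort of SREBP, had levels of 9.72 in B6, then 8.73, 8.55 and 9.36 in Sf, then 8.83, 8.79 and 8.84 in Sf.Il2-/-. It was below B6 on all mutant arrays, by -0.84 (adjusted p = 0.189) and -0.89 (adjusted p = 0.205). Srebf1 stood at 9.38 for B6, 8.78, 8.73 and 9.21 for Sf and 8.49, 8.81 and 8.76 for Sf.Il2-/-. It too was below B6 throughout, by -0.47 and -0.69, and in Sf.Il2-/- v Sf it differed by -0.22. Over the 5 sensing genes the medians were -0.66, -0.69 and -0.03 in Sf v B6, Sf.Il2-/- v B6 and Sf.Il2-/- v Sf.

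Insig1, itself a target of SREBP whose product retains the SCAP complex, read 8.45 on the B6 array, 8.25, 7.60 and 7.53 on the Sf arrays and 7.85, 8.66 and 8.53 on the Sf.Il2-/- arrays. Sf was below B6 on every array, and Sf.Il2-/- lay on both sides of it. The differences were -0.66 in Sf v B6 (adjusted p = 0.351) and 0.55 in Sf.Il2-/- v Sf (adjusted p = 0.714). Insig2 lay between 7.31 and 7.68 on all 7 arrays.

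Of the transport genes, Abca1, the cholesterol export pump and a target of LXR, ran against the sterol genes. It had levels of 7.41 in B6, then 8.55, 8.51 and 8.83 in Sf, then 6.52, 7.78 and 6.39 in Sf.Il2-/-. Every Sf array lay above B6 and above every Sf.Il2-/- array, of which Sf.Il2-/- 2 was the highest. The difference was -1.73 ± 0.34 in Sf.Il2-/- v Sf, 3.33-fold, with the lowest unadjusted p of all members in that comparison (0.000574) and an adjusted p of 0.122. Without Sf.Il2-/- 2 it was -2.18 with an adjusted p of 0.00851, and without Sf 3 it was -1.64 with 0.0343. Without each of the other 4 mutant arrays its adjusted p was 0.243 to 0.438. In Sf v B6 it was 1.22 ± 0.49 (adjusted p = 0.183). Its other 2 probe sets differed by -0.52 and -1.39 in Sf.Il2-/- v Sf and by 0.17 and 1.16 in Sf v B6, the same signs.

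Abca1 is also expressed by macrophages, whose 9 markers summed to 889 (B6), 642 to 960 (Sf) and 624 to 1210 (Sf.Il2-/-), with Itgam and C1qa under 5 on every array. That sum was highest on Sf.Il2-/- 2, the Sf.Il2-/- array highest for Abca1, and lowest on Sf.Il2-/- 3. Csf1r, the brightest of the 9 on every array (9.35 for B6), weighs most in that sum. Of the 9 markers, 5 were above 0 in Sf.Il2-/- v Sf and 4 below. Cd68 had the lowest p there, with a difference of 1.49 opposite to Abca1 (limma adjusted p = 0.0655). It stood at 5.03 for B6, 4.73, 4.77 and 5.32 for Sf and 6.20, 6.33 and 6.74 for Sf.Il2-/-. Lyz2, like Abca1, was highest among the Sf.Il2-/- arrays on Sf.Il2-/- 2 (7.02). The part of macrophages in the Abca1 values was not tested. Abcg1, the partner export pump, stood at 10.14 for B6, 9.75, 9.61 and 10.06 for Sf and 9.73, 10.05 and 9.89 for Sf.Il2-/-. Its second probe set read 7.34 for B6, 6.74, 6.76 and 7.28 for Sf and 5.70, 5.78 and 7.27 for Sf.Il2-/-. By that set it differed by -0.68 in Sf.Il2-/- v Sf and by -1.10 in Sf.Il2-/- v B6. Stard4, a carrier of sterol in the cytosol, read 8.14 on the B6 array, 8.21, 7.84 and 8.32 on the Sf arrays and 8.22, 7.93 and 8.15 on the Sf.Il2-/- arrays. The mutant groups overlapped for both genes.

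**Figure D5:**
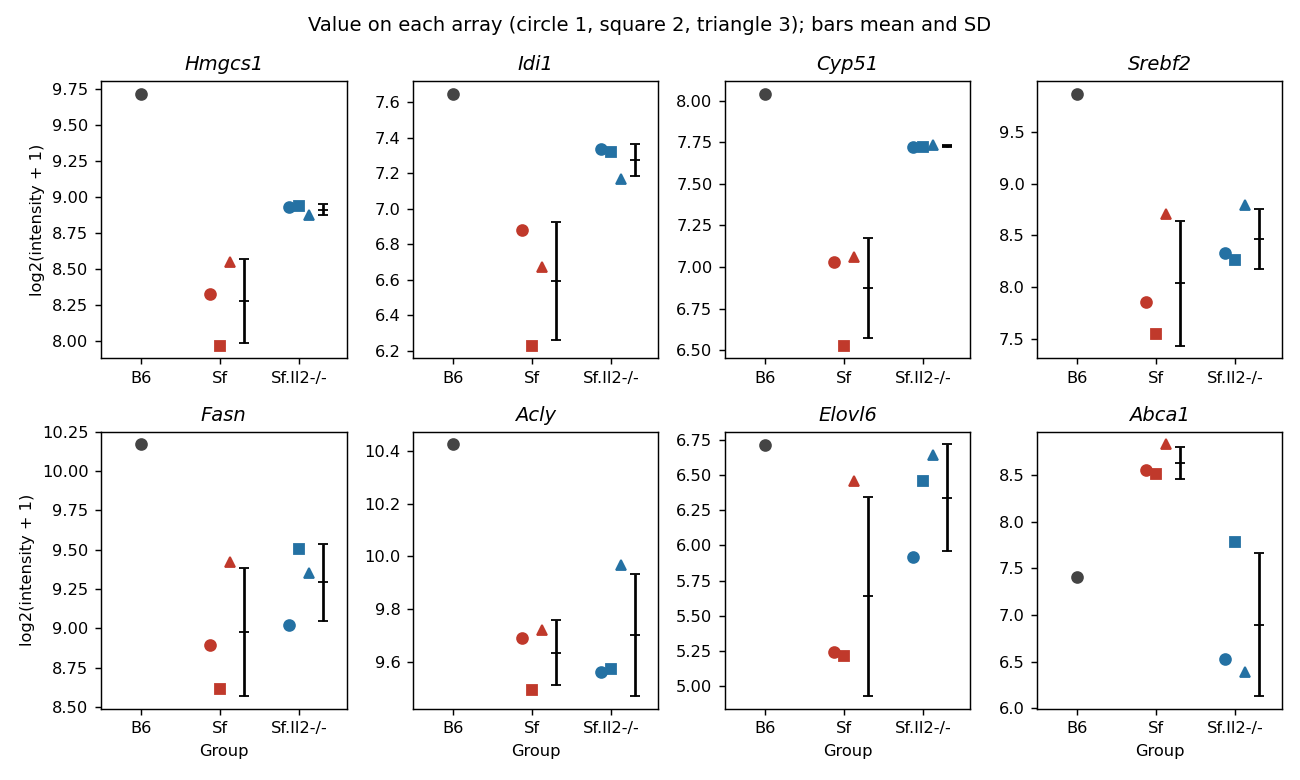
Level (log2(intensity + 1), each panel with its own vertical axis, not from 0) of 8 members on each array by group, with the mean and SD of each mutant group of 3. Hmgcs1, Idi1 and Cyp51 have Sf.Il2-/- between B6 and Sf without overlap, Acly is below B6 on all mutant arrays, and Abca1 has Sf highest.

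Fatty acid synthesis genes read lower at the median in both mutants than in B6, and none was called between the mutants. Over 9 measured genes the median was -0.60 in Sf v B6, -0.38 in Sf.Il2-/- v B6 and 0.21 in Sf.Il2-/- v Sf, or -0.35, -0.24 and 0.14 relative to all genes tested. By their brightest probe sets all 9 were above 0 in Sf.Il2-/- v Sf, from 0.04 for Fads1 to 0.70 for Elovl6. Of all genes tested, 37.8% were below 0. Without Sf 2 the median was 0.06 and Acaca, Acly and Fads1 were below 0 (-0.07, -0.0049 and -0.13). The medians depended on the probe set: with the second probe set of each gene, or the only one for Fasn, the Sf v B6 median was 0.15. In Sf.Il2-/- v Sf the second probe sets of Acaca, Scd2, Fads1 and Fads2 were below 0 (-0.20, -0.04, -0.36 and -0.06). Those of Acly, Scd1, Elovl5 and Elovl6 were above it.

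Fasn, the fatty acid synthase, had levels of 10.17 in B6, then 8.89, 8.62 and 9.42 in Sf, then 9.02, 9.50 and 9.35 in Sf.Il2-/-. All mutant arrays lay below B6 and the mutants overlapped. It differed by -1.19 ± 0.35 in Sf v B6 (adjusted p = 0.103, 0.0354 with the replicate block, 0.127 with the array set as a block), by -0.88 in Sf.Il2-/- v B6 (adjusted p = 0.226) and by 0.31 in Sf.Il2-/- v Sf. Acly, which supplies acetyl-CoA to both syntheses, stood at 10.42 for B6, 9.69, 9.50 and 9.72 for Sf and 9.56, 9.57 and 9.97 for Sf.Il2-/-. Its differences were -0.79 (adjusted p = 0.140), -0.72 (adjusted p = 0.202) and 0.07, with the mutants overlapping below B6. Acaca, the acetyl-CoA carboxylase, differed by -0.56, -0.34 and 0.22.

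Elovl5, an elongase of polyunsaturated fatty acids, read 11.26 on the B6 array, 10.51, 10.06 and 10.53 on the Sf arrays and 10.55, 10.42 and 10.77 on the Sf.Il2-/- arrays. All mutant arrays lay below B6, by -0.89 (adjusted p = 0.104) and -0.68 (adjusted p = 0.216). Elovl6, an elongase of saturated fatty acids, had levels of 6.72 in B6, then 5.24, 5.22 and 6.46 in Sf, then 5.92, 6.46 and 6.64 in Sf.Il2-/-. Here Sf 3 lay with the Sf.Il2-/- arrays and apart from Sf 1 and Sf 2. The difference in Sf.Il2-/- v Sf was 0.70 ± 0.35 (adjusted p = 0.689), and without Sf 3 it was 1.11 (adjusted p = 0.0326). Elovl6 in Sf v B6 had -1.08 (adjusted p = 0.234, 0.0293 with the replicate block). With the array set as a block it had -0.52 there (adjusted p = 0.408), and 0.18 in Sf.Il2-/- v B6.

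Of the desaturases, Scd2, which acts on saturated fatty acids, stood at 10.13 for B6, 10.30, 10.06 and 10.78 for Sf and 10.54, 10.49 and 10.56 for Sf.Il2-/-, with every Sf.Il2-/- array above B6. Its difference was 0.25 in Sf v B6 and 0.40 in Sf.Il2-/- v B6 (adjusted p = 0.612 and 0.496). After quantile normalization these were 0.93 and 0.68 (adjusted p = 0.00496 and 0.0171). Fads2 read 4.97 on the B6 array, 5.14, 4.82 and 4.31 on the Sf arrays and 5.13, 4.77 and 5.21 on the Sf.Il2-/- arrays, all near the level of 5 required for testing. Fads1 lay below B6 on all 6 mutant arrays, but differed by -0.60 in Sf v B6 by its brightest probe set and by 0.31 by its second.

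In the genes around these, 1 moved past the threshold. Acss2, which makes acetyl-CoA from acetate, had levels of 9.42 in B6, then 7.79, 7.80 and 7.46 in Sf, then 7.24, 7.33 and 7.70 in Sf.Il2-/-. It fell by 1.74 in Sf v B6 (adjusted p = 0.0223) and by 2.00 in Sf.Il2-/- v B6 (adjusted p = 0.0121), and differed by -0.26 between the mutants. It was the only one called of 16 tested among 18 further fatty acid genes. Of 6 measured further sterol and isoprenoid genes, 4 of SREBP processing, 9 of sterol uptake and trafficking (8 tested), 7 of LXR and its partners and 15 of fatty acid oxidation (14 tested), limma called 0 in each comparison. At an unadjusted p under 0.05, in either direction, Sf v B6 had 1 of 6, 2 of 4, 4 of 8, 3 of 7 and 4 of 14 of them in that order. Sf.Il2-/- v B6 had 1, 0, 4, 3 and 2, and the mutant comparison had 0, 1, 1, 1 and 0. The shares of all genes were 22.5%, 18.6% and 7.92% in these 3 comparisons.

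The lowest p of each of these lists in Sf v B6 belonged to Lbr, a sterol reductase (-0.67, adjusted p = 0.119), Mbtps1, the first SREBP protease (-1.03, 0.147), Npc2, which moves cholesterol out of lysosomes (-0.87, 0.0516), Rxra, the partner of LXR (1.48, 0.129), and Hadhb of fatty acid oxidation (-0.57, 0.168). In Sf.Il2-/- v B6 it belonged to Lbr, Mbtps1, Npc2, Lpcat3 and Etfb, with adjusted p from 0.113 for Npc2 to 0.289 for Mbtps1. Between the mutants it belonged to Lbr, Rnf139, Tspo, Rxra and Hadhb, from 0.288 for Rxra to 0.878 for Lbr. Rxra, like Abca1, was highest in Sf. It stood at 5.73 for B6, 7.06, 7.02 and 7.56 for Sf and 6.07, 5.07 and 6.48 for Sf.Il2-/-, with Sf above both other groups, and differed by -1.34 in Sf.Il2-/- v Sf (adjusted p = 0.288). Lpin1, a phosphatidate phosphatase and coactivator, had the lowest p of the further fatty acid genes in Sf.Il2-/- v Sf. It read 8.13 on the B6 array, 7.10, 6.83 and 7.27 on the Sf arrays and 7.72, 8.48 and 8.53 on the Sf.Il2-/- arrays, with Sf below all other arrays and a difference of 1.18 (adjusted p = 0.175).

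At the median, genes of cell division stood the other way from the sterol genes in both mutants. Their median over 15 measured genes was 1.31 for Sf v B6, 1.22 for Sf.Il2-/- v B6 and 0.25 between the mutants. In Sf v B6, 12 of the 15 were above 0, where 65.25% of all genes tested were below it. Mcm2, Mcm4 and Pcna were below 0 (-0.38, -0.11 and -0.05). Limma called 1 of 15 higher there, Rrm2, by 1.81 (adjusted p = 0.0491), where 1.31% of all genes were called higher. In Sf.Il2-/- v B6, 14 of the 15 were above 0, and Mcm2 was below (-0.21). Limma called 4 higher (Rrm2, Birc5, Ccna2 and Cdk1), by 1.63 to 2.23 with adjusted p of 0.0357 to 0.0495, where 1.49% of all genes were.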

How the data were processed

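RNA was measured on 7 Affymetrix mouse arrays. The deposited table holds the authors' intensity for 45037 probe sets, unlogged. The submitters' processing notes name GCRMA and GCOS without versions, order or parameters, and how the arrays were scaled to each other is not given in the sources used here. Genes were named through the array annotation (34945 probe sets name 1 gene) and represented by the probe set with the highest mean among those. Values were taken as log2(intensity + 1), genes with a highest group mean of at least 5 were tested, and limma 3.58.1 in R 4.3.3 (lmFit and eBayes with an intensity trend) compared 3 group means in 1 fit over 7 arrays, with 4 residual degrees of freedom and Benjamini-Hochberg adjustment over 11460 genes at 0.05. Precision is limited by the number of arrays. The p values rest on the spread between arrays within the mutant groups, moderated by eBayes over all genes. Those against B6 hold no spread of B6. A pseudocount of 1 understates differences of dim genes. The fit was tested on simulated data.

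The members, lists, motifs and alternatives were chosen with earlier results of these data known. Per-array values were given for members past the threshold and, where fewer than 4 of a role passed in a comparison, for those with the lowest p up to 4. Sqle, Mvk, Lpin1 and other genes outside this rule were named after their values were seen. Of the further lists, up to 4 genes past the threshold were named, or the 1 with the lowest p.

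Same-numbered Sf and Sf.Il2-/- arrays deviated together from their group means (correlations of 0.301, 0.211 and 0.505 over genes), although Sf 2 correlated better with Sf.Il2-/- 1 (0.333). The titles give the numbers without saying what they share, so the block by number was an alternative. It also placed B6 with Sf 1 and Sf.Il2-/- 1. With 1 B6 array, a deviation shared with them could not be looked for. Other alternatives were the filter, the pseudocount, the scaling, the trend, the probe set, leaving out arrays, array set 1 alone, and the array set as a block, the last chosen after seeing the data. Motifs were searched in RefSeq promoter windows (GRCm38.p6), of which 28 of 36 members had 1 or more. Plots were made with Python 3.11.15 and matplotlib 3.10.9.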

Additional observations from a re-analysis of the deposited data

How the results depend on the processing

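The median of the 17 sterol genes stayed below 0 in Sf v B6 and above 0 in Sf.Il2-/- v Sf under all alternatives run. In Sf v B6 the sterol median moved from -0.58 to -0.34 with the mean of each gene's probe sets, -0.33 with quantile normalization and -0.88 with the second probe set. The fatty acid median there moved from -0.60 to -0.21, -0.27 and 0.15 with the same 3 choices, the last above 0. In the last choice, genes with 1 probe set kept it: Pmvk, Sqle, Tm7sf2, Dhcr7, Nsdhl, Ebp and Fasn. The second sets of Mvk, Fdps, Msmo1, Scd1 and Fads2 had a highest group mean under 5. In Sf.Il2-/- v B6 the sterol median moved from -0.28 to 0.0047 with quantile normalization and -0.45 with the second probe set, and the fatty acid median from -0.38 to -0.62 with the replicate block, -0.10 with the array set as a block and -0.0493 with the second probe set. For Sf.Il2-/- v Sf, leaving out 1 array at a time gave sterol medians from 0.16 to 0.40, lowest without Sf 2.

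The 1 member called in Sf v B6 became 0 with no filter, with no trend, with the mean of probe sets, with the second probe set, with the 2 groups compared alone and without Sf 1 and Sf.Il2-/- 2 together, 2 with the array set as a block, 3 with quantile normalization and 7 with the replicate block, and leaving out 1 array gave 0 to 12. The share of all genes called in Sf v B6 moved as well. It was 0.885%, 1.77%, 1.84%, 1.5%, 1.63% and 2.47% in the settings that gave 0, in the order named. With the array set as a block, quantile normalization and the replicate block it was 5.28%, 4.83% and 16.4%. Without Sf 1, 2 and 3 it was 1.02%, 2.42% and 30%. The 0 called in Sf.Il2-/- v B6 became 1 with the groups alone (Srebf2), 1 with quantile normalization (Scd2) and 2 with the replicate block. Of all genes, 7.37%, 6.3% and 10.6% were called in these settings. The 0 in Sf.Il2-/- v Sf became 5 with array set 1 alone (Sf 1, Sf 2, Sf.Il2-/- 1 and Sf.Il2-/- 2), where 5.11% of all genes were called. Hmgcs1, Fdps, Cyp51 and Elovl6 were higher there and Mvd lower. The count became 1 without Sf 1 and Sf.Il2-/- 2 together (Abca1), where 0.421% of all genes were called. Leaving out 1 array gave 0 to 5, where 0.0694% to 7.43% of all genes were called. The replicate block left the 0 in Sf.Il2-/- v Sf as it was. Over all genes the called number in Sf v B6 was 283, and 1880 with the replicate block, 605 with the array set as a block, 554 with quantile normalization and 145 with the second probe set. The 6 sterol genes at an unadjusted p under 0.05 in Sf.Il2-/- v Sf became 3 with the mean of probe sets and 3 with the second probe set. The shares of all genes on that higher side were 5.46%, 4.24% and 4.47%. The cause of these changes was not tested. Of single members under single alternatives, 458 of 486 in Sf v B6 stayed on their side of the threshold, 20 came past it and 8, all Hmgcs1, fell short. The sign of an uncalled difference turned in 26 of these 486. For Sf.Il2-/- v B6, 4 came past it and 28 of 485 turned sign, and in Sf.Il2-/- v Sf 12 and 44 of 616. None of these alternatives turned the direction of a called member.

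With 1 B6 array, differences from B6 include that array's own deviation. Detection calls were not used here, so dim members (Scd1, Fads2, the second probe set of Mvk) have no measured background beside them.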
